A study of Homo sapiens with 6 samples.

Results

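Fragments of tRNA-His-GTG, the nuclear transfer RNA that reads the histidine codons CAC and CAU, were followed in 6 small RNA libraries of A375, an established human melanoma cell line. Of the 3443 fragments listed, 94 were taken by their codes and sequences, with a rule written when earlier results of these data were known. They were 9 fragments of the 5' end that start at position 1 of the tRNA, 11 that start 1 base earlier at an added G, written here as position -1, and 74 internal fragments that share at least 14 bases in a row with the longest of these or with tRF-17-VL4YMYP, an internal fragment that the rule names outright. The 5' fragments are those of at least 19 nt. None of the 94 was a 5'-half, and all 20 of the 5' fragments were listed as 5' tRFs.

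The libraries came from 3 biological replicates of wild-type cells, kept alongside without targeting of DUS1L, and 3 replicates of DUS1L knockout cells, made with CRISPR/Cas9 and selected as clones. The number of clones is not stated, so each p-value speaks of the spread among replicates and says nothing of how clones differ. Libraries were made from total RNA with a kit for small RNA and selected by size. Their totals ran from 15742 to 32754 counts, and the table holds no row for DUS1L, so its loss could not be checked here. Wild-type replicate 3 stood apart. Across fragments, its log2 CPM correlated with wild-type replicates 1 and 2 at r = 0.851 and 0.846, those with each other at 0.936, and knockout replicates among themselves at 0.920 to 0.929.

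tRNA-His is known for an extra G at its 5' end. In animals the G is put on after transcription by the guanylyltransferase THG1L, and histidyl-tRNA synthetase uses it to recognise the tRNA. DUS1L is a dihydrouridine synthase, which reduces uridines at the start of the D-loop, just before the conserved pair of G, to the flexible base dihydrouridine. The comparison asks which fragments of the tRNA differ when that enzyme is lost.

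The tRNA itself is shown first, because each fragment is a window of it. The RefSeq annotation of GRCh38.p14 lists 9 TRH-GTG genes, on chromosomes 1, 6, 9 and 15. The sequence could be read for 2 of them on the minus strand of chromosome 15, TRH-GTG1-7 (45198606 to 45198677) and TRH-GTG1-8 (45200413 to 45200484), which lie in exons of the GENCODE non-coding transcripts AC051619.7 and AC051619.8. Both are 72 nt long and identical, and in both the genomic base before position 1 is C and not G. The letters of the gene, from position 1 and without the CCA end, follow with 2 parts in capitals: the T at position 16, just before the D-loop pair of G at positions 17 and 18, and the anticodon at positions 34 to 36.
tRNA-His-GTG: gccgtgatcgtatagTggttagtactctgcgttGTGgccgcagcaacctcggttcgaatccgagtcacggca

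The 5' fragments that carry the comparison of forms with and without the added G are given next, as pairs with a shared 3' end. The added G and the T at position 16 are in capitals.
tRF-29-PW5SVP9N15JP: gccgtgatcgtatagTggttagtactctg
tRF-30-6SXMSL73VL4Y: GgccgtgatcgtatagTggttagtactctg
tRF-28-PW5SVP9N1503: gccgtgatcgtatagTggttagtactct
tRF-29-6SXMSL73VLH3: GgccgtgatcgtatagTggttagtactct
tRF-26-PW5SVP9N15E: gccgtgatcgtatagTggttagtact
tRF-27-6SXMSL73VL3: GgccgtgatcgtatagTggttagtact
tRF-24-PW5SVP9NFB: gccgtgatcgtatagTggttagta
tRF-25-6SXMSL73VL: GgccgtgatcgtatagTggttagta

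The internal fragments fall by where they start. Those below show the starts at positions 13 and 14, the starts at 15 and 16 beside them, and the starts at 19 to 21, which lie after the pair of G and lack the T at position 16.
tRF-17-V47PU9P: tagTggttagtactctg
tRF-18-V47PU90M: tagTggttagtactctgc
tRF-16-18Y3E70: agTggttagtactctg
tRF-17-18Y3E7M: agTggttagtactctgc
tRF-16-73VL4YD: gTggttagtactctgc
tRF-16-9N15WV0: Tggttagtactctgcg
tRF-16-Y3E7QN0: ttagtactctgcgttg
tRF-17-Y3E7QNN: ttagtactctgcgttgt
tRF-18-Y3E7QN00: ttagtactctgcgttgtg
tRF-16-VL4YMYE: tagtactctgcgttgt
tRF-17-VL4YMYP: tagtactctgcgttgtg
tRF-16-15WV7W0: agtactctgcgttgtg

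In the knockout, 11 of the 16 internal fragments of tRNA-His that could be tested were higher, and the main 5' fragment with the added G was lower. All 94 fragments together took 2.38%, 2.15% and 3.01% of the counts of wild-type replicates 1 to 3 and 6.59%, 7.05% and 5.43% of knockout replicates 1 to 3. Every knockout library lay above every wild-type library. Of the 94, 21 had enough counts to be tested, and of these 12 rose and 1 fell (edgeR's quasi-likelihood test, adjusted p under 0.05). Among all 235 fragments tested, 25.5% were called higher and 28.1% lower. The median log2 fold change was 1.03 for the 21 and -0.01 for all 235. Fragments overlap and share one tRNA, so the 12 rises are not 12 independent observations. Leaving out 1 library at a time gave 10 to 15 rises, with 15 without wild-type replicate 3. The single fall was lost in 3 of these 6 fits, by DESeq2's Wald test and with no low-count filter, and could not be tested where 10 counts were asked of all 6 libraries.

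The 73 fragments that were not tested had a median of 5 counts over the 6 libraries and at most 47. Together they took 0.388%, 0.356% and 0.570% of wild-type counts and 0.783%, 0.935% and 0.728% of knockout counts, again without overlap. Of the 21 tested, 18 reached 10 counts in at least 1 library of each group, 2 reached it in knockout libraries only and 1 in wild-type libraries only. The 2 had to be high in the knockout and the 1 in wild-type cells to be tested at all. They were tRF-17-V47PU9P, which was called higher, and tRF-24-PW5SVP9NFB, which was not called. The 1 was tRF-30-6SXMSL73VL4Y, the most abundant form with the added G and the member called lower. The filter itself asks for a level scaled to library size in at least 3 libraries. By it, tRF-16-18Y3E70 (13, 4 and 6 wild-type counts) and tRF-16-VL4YMYE (14, 4 and 8) also passed through knockout libraries only. Both were called higher, and both reached 10 wild-type counts only in replicate 1, the largest library. Among other members called higher, some reached that level in only part of the wild-type libraries and needed knockout libraries to pass. They were tRF-18-V47PU90M (14, 6 and 14 wild-type counts), tRF-18-Y3E7QN00 (21, 5 and 11) and tRF-20-MQ18Y3E7 (16, 11 and 17).

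The form with the added G made up a smaller part of the 5' fragments in the knockout. Summed over all 20 of the 5' fragments, 39 of 239 counts, 19 of 111 and 20 of 146 began at the added G in wild-type replicates 1 to 3, shares of 16.3%, 17.1% and 13.7%. In knockout replicates 1 to 3 they were 16 of 201, 13 of 234 and 13 of 247 counts, shares of 7.96%, 5.56% and 5.26%. The groups did not overlap, with means of 15.7% ± 1.79 and 6.26% ± 1.48 (SD, n = 3 each) and a two-sided exact permutation p of 0.1, the smallest that 3 libraries against 3 can give. The 95% Wilson intervals, which cover counting error only, reached from 9.05% to 25.2% over the wild-type libraries and from 3.10% to 12.5% over the knockout libraries. The difference came with both a lower level of the form with G, a mean of 0.116% ± 0.00660 of a wild-type library and 0.0714% ± 0.0132 of a knockout library, and a higher level of the form without it, 0.626% ± 0.0515 and 1.09% ± 0.253.

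The pair of fragments that end at position 29, in the anticodon stem, held 607 of the counts and was the only 1 of 4 pairs whose groups did not overlap. The form with G, tRF-30-6SXMSL73VL4Y, had 24, 13 and 14 counts in wild-type and 7, 6 and 5 in knockout replicates, or 840, 869 and 652 against 347, 354 and 215 counts per 1e6 counts (CPM, TMM-scaled). All knockout libraries lay below all wild-type libraries, and it fell by 1.37 on the log2 scale (SE 0.387, edgeR adjusted p = 0.0124). The call was lost without wild-type replicate 1 (adjusted p = 0.0648), and likewise without knockout replicate 1 (0.0691) or knockout replicate 3 (0.105), nor was it made by DESeq2's Wald test (0.189) or with no low-count filter (0.166). The form without G, tRF-29-PW5SVP9N15JP, the second most abundant of the 94, had 4166, 4412 and 2608 CPM in wild-type cells and 4557, 4893 and 5240 CPM in knockouts. It did not pass the test (log2 change 0.40, SE 0.262, by edgeR an adjusted p = 0.219).

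Within that pair the G form took 24 of 143, 13 of 79 and 14 of 70 counts in wild-type replicates and 7 of 99, 6 of 89 and 5 of 127 in knockout replicates. The shares, 17.7% ± 1.96 and 5.92% ± 1.72 (SD, n = 3 each), gave an exact permutation p of 0.1, or 0.4 after adjustment over the 4 pairs compared. The other 3 pairs were thinly counted and overlapped between groups. At position 28 the G form, tRF-29-6SXMSL73VLH3, had 5, 0 and 4 counts in wild-type cells and 4, 3 and 3 in knockouts (shares of 11.6% ± 10.4 and 12.9% ± 5.33, SD, n = 3, exact permutation p of 1, adjusted 1). At position 26 tRF-27-6SXMSL73VL3 had 3, 5 and 1 against 3, 1 and 3 counts (exact permutation p of 0.4, adjusted 0.8), and the highest share, 33.3% in wild-type replicate 2, stood on 5 of 15 counts. At position 24 tRF-25-6SXMSL73VL had 2 counts, both in knockout replicate 3 (exact permutation p of 1, adjusted 1). Without the pair ending at position 29 the share over the remaining 5' fragments averaged 14.1% ± 5.59 for wild-type cells against 6.77% ± 2.00 for knockouts, and the groups overlapped (SD, n = 3, exact permutation p of 0.2). The remaining 7 fragments with G had at most 4 counts each in all 6 libraries.

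G was the most frequent base before position 1. Of 5' fragments of any length that begin 1 base before position 1, 12 rows with 121 counts began with G, 1 row with 9 counts with T, 3 rows with 3 counts with C and 0 rows with A. The rows with T and C, which the choice of members did not include, were not analysed further.

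Of the 5' fragments that start at position 1, 4 were tested, and 1 of them rose. Among all 61 5' tRFs tested, 27.9% were called higher and 19.7% lower. The one called, tRF-26-PW5SVP9N15E, ends at position 26 and had 1470, 669 and 2049 CPM in wild-type cells and 3120, 5423 and 2663 CPM in knockouts. The groups did not overlap, and the log2 change was 1.37 (SE 0.400, by edgeR an adjusted p = 0.0143). It was no longer called without wild-type replicate 2 (adjusted p = 0.0540) or knockout replicate 2 (0.0961). The fragment ending at position 24, tRF-24-PW5SVP9NFB, had 210, 334 and 279 CPM against 545, 589 and 515 CPM, which did not overlap, and missed the threshold (log2 change 1.03, SE 0.405, by edgeR an adjusted p = 0.0509). The one ending at position 28, tRF-28-PW5SVP9N1503, had 1015, 735 and 745 CPM against 842, 1533 and 1245 CPM and overlapped between groups (log2 change 0.51, SE 0.337, by edgeR an adjusted p = 0.226).

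Where these fragments ended overlapped between groups. The end at position 29 took 59.5%, 71.7% and 44.4% of the counts that start at position 1 in wild-type and 49.7%, 37.6% and 52.1% in knockout libraries. The end at position 26 took between 10.9% and 34.9% in the former and between 26.5% and 41.6% in the latter. In both cases wild-type replicate 3 lay among the knockout libraries.

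Of the 16 internal fragments tested, 11 rose and 0 fell. Among all 121 internal tRFs tested, 34.7% were called higher and 14.9% lower. The 6 that start after the pair of G held 5 of the rises, with a median log2 fold change of 1.66, and the 10 tested of the 68 that span position 16 held 6, with a median of 0.97. The median of all internal tRFs tested was 0.29.

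The most abundant of all 94 fragments starts at position 20, the second of the 2 T after the pair of G, and ends at position 36, the last base of the anticodon. This is tRF-17-VL4YMYP, with 3641, 2407 and 2748 CPM in wild-type cells and 15354, 12674 and 10994 CPM in knockouts. The lowest knockout library was far above the highest wild-type library, and the fragment rose 4.40-fold (log2 change 2.14, SE 0.270, by edgeR an adjusted p = 2.40e-04). One base shorter at the 5' end, tRF-16-15WV7W0 (21 to 36) had 1715, 1538 and 1304 CPM against 5646, 5129 and 4681 CPM, a rise of 3.37-fold (log2 change 1.75, SE 0.249, by edgeR an adjusted p = 3.16e-04). One base longer, tRF-18-Y3E7QN00 (19 to 36) had 735, 334 and 512 CPM against 2476, 2004 and 1331 CPM and rose 3.48-fold (log2 change 1.80, SE 0.369, by edgeR an adjusted p = 0.00259). In each of these 3 the groups did not overlap.

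Fragments with the same starts but an end inside the anticodon differed less or did not pass. Ending at position 35, tRF-16-VL4YMYE (20 to 35) had 490, 267 and 373 CPM against 1387, 1061 and 1074 CPM and rose 2.97-fold (log2 change 1.57, SE 0.355, by edgeR an adjusted p = 0.00469). This fragment passed the filter through knockout libraries only. Also ending at 35, tRF-17-Y3E7QNN (19 to 35) had 700, 1003 and 885 CPM against 1833, 1651 and 1288 CPM, a rise of 1.86-fold (edgeR adjusted p = 0.0289). It was no longer called when wild-type replicate 1 (adjusted p = 0.114), wild-type replicate 2 (0.0559), or replicate 1 (0.0661) or 2 (0.0673) of the knockout was left out, nor by DESeq2 (0.118) or with no low-count filter (0.456). Ending at position 34, the first anticodon base, tRF-16-Y3E7QN0 (19 to 34) had 1750, 869 and 1537 CPM against 3170, 2299 and 1245 CPM. Its groups overlapped, and it did not pass (log2 change 0.65, SE 0.374, by edgeR an adjusted p = 0.168), although it did without knockout replicate 3 (0.0457). From the start at 19, the fold was thus 3.48 to the end at 36, 1.86 to the end at 35 and 1.57 to the end at 34. That order was noticed in these values and was not tested.

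The highest folds among the 21 tested, 6.31 to 9.90, were those of 3 fragments that start at positions 13 and 14, just before the D-loop site, and end at position 29 or 30. The ends of that range are tRF-16-18Y3E70 and tRF-17-V47PU9P, which passed the filter through knockout libraries only. They had to be high there to be tested at all, so the ranking depends in part on the filter. From position 14, tRF-17-18Y3E7M (14 to 30) had 595, 802 and 978 CPM in wild-type cells and 6142, 6956 and 4166 CPM in knockouts, a rise of 7.26-fold (log2 change 2.86, SE 0.323, by edgeR an adjusted p = 1.31e-04). Its shorter form tRF-16-18Y3E70 (14 to 29) had 455, 267 and 279 CPM against 3269, 1710 and 1675 CPM and rose 6.31-fold (SE of the log2 value 0.398, edgeR adjusted p = 3.87e-04). Both stood clear of overlap by a wide margin.

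From position 13, tRF-17-V47PU9P (13 to 29) had 5, 3 and 4 counts in wild-type cells and 50, 31 and 32 in knockouts, or 175, 201 and 186 against 2476, 1827 and 1374 CPM. It rose by 3.31 on the log2 scale (SE 0.395, edgeR adjusted p = 1.64e-04), a value that rests on few wild-type counts. Its longer form tRF-18-V47PU90M (13 to 30) had 490, 401 and 652 CPM against 1684, 1886 and 1245 CPM, a rise of 3.04-fold (log2 change 1.60, SE 0.340, by edgeR an adjusted p = 0.00314). From position 12, tRF-19-H3RXSIHM (12 to 30), too low to be tested and picked out after its values were seen, had 0, 0 and 1 counts in wild-type cells and 11, 4 and 13 in knockouts.

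Starts 1 or 2 bases further on, at positions 15 and 16, differed far less between groups. Summed over their 7 fragments they took 0.153%, 0.178% and 0.141% of wild-type and 0.192%, 0.224% and 0.191% of knockout counts, a ratio of means of 1.29 with no overlap of the summed values, though either start alone overlapped. The 5 fragments that start at 13 and 14 took 0.165%, 0.172% and 0.244% of wild-type and 1.33%, 1.33% and 0.867% of knockout counts, a ratio of 6.07. The one fragment of these 7 that was tested, tRF-16-9N15WV0 (16 to 31), picked out after its values were seen, had 1015, 1136 and 373 CPM against 1139, 707 and 1203 CPM and did not pass (log2 change 0.31, SE 0.414, by edgeR an adjusted p = 0.561). Another, tRF-16-73VL4YD (15 to 30), also picked out after its values were seen, had 13, 5 and 7 against 4, 10 and 8 counts. It differs from tRF-17-18Y3E7M by the first base alone. Its longer form tRF-17-73VL4YK (15 to 31) had 140, 201 and 233 CPM against 297, 413 and 301 CPM, without overlap. That form had 4, 3 and 5 against 6, 7 and 7 counts and was not tested. The comparison of start positions was chosen after the values were seen, so no test is given for it.

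Among the fragments that start at 15 and 16, 4 rows with 28 counts in all carry a base that the gene shown above does not have. Counted from position 1 of the tRNA, the change is T32C, with the base of the gene first. Their parent was not identified here. The 4 rows reach only from position 15 to 33, so whether that parent differs from the gene elsewhere is not known. No fragment that ends at position 31 or before reaches the changed base, so that base cannot place it. That holds for all 20 of the 5' fragments and for every internal fragment that spans position 16 other than these 4 rows, those that start at 13 and 14 included.

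Fragments that start nearer the 5' end, at positions 2 to 8, took 0.412%, 0.368% and 0.635% of wild-type and 0.788%, 0.991% and 0.806% of knockout counts over 40 rows, a ratio of means of 1.83. The most abundant of them lacks only the first base of the tRNA, tRF-25-34HWH3RXSI (2 to 26), and its end is that of the 5' fragment tRF-26-PW5SVP9N15E. It had 1295, 1203 and 1258 CPM in wild-type cells and 2229, 2653 and 2190 CPM in knockouts and rose 1.87-fold (log2 change 0.90, SE 0.252, by edgeR an adjusted p = 0.0119), with no overlap. DESeq2's Wald test did not call it (adjusted p = 0.0534), nor did edgeR with no low-count filter (0.358). The next shorter one, tRF-24-MUWLV47P2W (3 to 26), picked out after its values were seen, had 455, 468 and 792 CPM against 892, 1238 and 1031 CPM and missed the threshold (log2 change 0.86, SE 0.362, by edgeR an adjusted p = 0.0631).

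Starts at positions 9 to 12 took 0.137%, 0.114% and 0.336% of wild-type and 0.418%, 0.424% and 0.412% of knockout counts, with wild-type replicate 3 closest to the knockout libraries. The ratio of means was 2.29 for the start at 9, and 2.32 and 1.22, both with overlap, for those at 10 and 11. For the start at 12 it was 4.85 without overlap, on 11 wild-type and 52 knockout counts, beside 4.60 for the start at 13. These single starts were compared after the values were seen and were not tested. In this range tRF-20-MQ18Y3E7 (9 to 28) had 560, 735 and 792 CPM against 1486, 1061 and 1675 CPM, a rise of 2.05-fold (log2 change 1.04, SE 0.329, by edgeR an adjusted p = 0.0221). It was no longer called when wild-type replicate 1 (adjusted p = 0.0897), wild-type replicate 2 (0.0589), or replicate 1 (0.0501) or 3 (0.0751) of the knockout was left out, nor by DESeq2 (0.0945) or with no low-count filter (0.290). Neither of the other 2 tested internal fragments that end at position 28, both picked out after their values were seen, passed the test. For tRF-21-WLV47PU9E (8 to 28) the edgeR adjusted p was 0.202, and for tRF-18-VP9N1503 (11 to 28) it was 0.843.

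By 3' end, the internal fragments that end at positions 29 and 30 took 0.342% ± 0.108 of wild-type and 1.46% ± 0.276 of knockout counts, and those that end at 34 to 36 took 0.752% ± 0.128 and 2.53% ± 0.416 (SD, n = 3 each). Those that end at 27 and 28 took 0.297% ± 0.158 and 0.494% ± 0.0367, with overlap, and those that end at 31 to 33 took 0.121% ± 0.0225 and 0.164% ± 0.00859. Those that end at 26 or before took 0.259% ± 0.0441 and 0.541% ± 0.0936. The ratios of means were 4.26, 3.37, 1.67, 1.36 and 2.09 in that order. The ends at 34 to 36 are those of the same 6 fragments that start after the pair of G. The ends at 29 and 30 include the fragments from positions 13 and 14 with the highest folds. Differences by end are therefore not separate from those by start, and no test is given for them. Within the ends at 34 to 36 the ratio was 4.14 for the end at 36, 2.26 for the end at 35 and 1.63, with overlap, for the end at 34. As shares of internal counts, chosen for mention because their groups did not overlap, 3 starts took more in knockouts. These were position 20 (18.6% ± 2.81 and 27.6% ± 1.48, wild-type first, SD, n = 3 each), position 14 (6.40% ± 0.780 and 15.4% ± 1.60) and position 13 (4.56% ± 0.246 and 7.05% ± 0.593). A smaller share went to the starts at position 19 (16.8%, 14.5% and 15.4% in the wild-type replicates, 12.9%, 11.3% and 8.96% in the knockouts), position 2 (10.7% ± 1.04 and 6.37% ± 0.487), position 3 (5.14% ± 0.829 and 3.45% ± 0.846) and position 15 (3.59% ± 0.305 and 1.58% ± 0.607). The other starts overlapped between groups. A smaller share of internal counts is not a lower level. As a percent of all library counts, the starts at 19, 2 and 3 were higher in knockouts without overlap. Their ratios of means were 2.10, 1.75 and 1.92. For the start at 15 the ratio was 1.28, with overlap.

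Other fragments of the same tRNA, not among the 94, were few. Of 4 rows of 5' tRFs of 16 to 18 nt, with 11 counts in all, 0 could be tested. Of 4 rows of 3' tRFs that end in CCA, with 67 counts, 1 could be tested and fell. This one, tRF-17-8US5652, had 18, 9 and 14 counts in wild-type cells and 2, 1 and 2 in knockouts, and fell by 2.84 on the log2 scale (SE 0.481, edgeR adjusted p = 8.54e-04). It reached 10 counts in wild-type libraries only, so it had to be high there to be tested at all. Among all 235 fragments tested 28.1% were called lower, against 14.9% of internal and 19.7% of 5' tRFs. Falls were thus more frequent among the remaining types of fragment, to which 3' tRFs belong. The fall of this one is not shown to be particular to tRNA-His. In bulk libraries such as these, a change in the number of tRNA molecules cut and a change in what is captured in the library cannot be told apart.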

How the data were processed

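The authors deposited raw read counts per fragment, not normalized, in 1 column per library, and these were used as they stand. Reads were assigned to tRNA with MINTmap, per the series' design text, and FastQC, cutadapt and DESeq2 were used with the GRCh38 (hg38) build, per the submitters' processing notes. For versions and filters, the sources used here give none. The table names no parent tRNA. Each identifier is a MINTbase code with 2 symbols for every 5 bases, and all 3443 were decoded, to 3443 different sequences. The decoded sequence from positions 1 to 36 was found without a mismatch in 2 TRH-GTG genes. Other genes may share it. Positions are counted along the gene from 1, and the added G is -1.

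Fragments of the whole table were kept by filterByExpr in edgeR 4.0.16 (minimum count of 10), scaled by TMM and compared, knockout against wild-type, by the two-sided quasi-likelihood test of edgeR under R 4.3.3. Adjustment was by Benjamini-Hochberg over all 235 fragments tested, with a threshold of 0.05. Standard errors (SE) were taken from the F statistic, as the log2 value over its square root. CPM are counts per 1e6 of a library's total times its TMM factor. Low totals (15742 to 32754 counts) limit the test to abundant fragments, and reads carry no molecular identifiers. Shares were compared by exact permutation in scipy 1.17.1. Replicate pairs of a group all differed by more than counting noise (a chi-square of at least 2.69 per degree of freedom).

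Named were the 10 members with most counts, every called member, and every pair of 5' forms with the same end and at least 20 counts. The members and lists were chosen with earlier results of these data known. Alternatives were DESeq2 1.42.0, other scalings and filters, a replicate block and leaving out each library.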

Additional observations from a re-analysis of the deposited data

How the results depend on the processing

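The number of members called higher (12) was 14 with DESeq2's size factors in edgeR, 12 with upper quartile scaling, 12 with library totals only, 9 with DESeq2's Wald test, 10 with no low-count filter, 7 of 10 tested with 10 or more counts in all 6 libraries, and 10 to 15 when each library was left out in turn. The number called lower (1) was 0 with DESeq2's Wald test, 0 with no low-count filter, 0 with 10 or more counts in all 6 libraries, where that member was not tested, and 0 to 1 when each library was left out. DESeq2's size factors moved the median log2 fold change of all fragments from -0.01 to 0.10. Of 13 called members, 8 were called under every one of the 13 settings that tested them, and 0 of the 17 named members with a test changed sign.

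With a replicate block, 12 members were higher and 1 lower. The labels number the replicates without saying that a number marks a shared culture, and deviations of same-numbered libraries correlated at 0.37, -0.05 and 0.12, so the numbers were not taken as pairs. The share of 5' counts with the added G differed by -9.45 points. It differed by -9.15 and -9.36 points with members of 10 or more counts and with ends listed in both forms, by -10.5 to -8.75 points without 1 library, and by -7.32 points without the pair ending at position 29, a setting chosen after seeing the data. At 120 counts with the added G in all, shares at single ends other than 29 cannot be resolved.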
